A study of Mus musculus with 6 samples.

Results

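The 8 genes described here mark the cells of the brain's vessel walls and coverings: Rgs5, Vtn, Pdgfrb, Abcc9 and Atp13a5 for mural cells, and Slc6a13, Dcn and Ptgds for leptomeningeal fibroblasts. They were taken by name as known markers, with no threshold on a measured value, and all 8 were listed in each table used: 8 of 19006 mouse genes in SCRB-seq wells, of 21987 in SMART-Seq2 wells, of 21608 in plate nuclei, of 23295 in the table that sets formalin-fixed, paraffin-embedded (FFPE) nuclei beside frozen nuclei, and of 19905 in droplets. The nuclei came from scrolls, thick sections of 50 µm, of brains of C57BL/6J mice aged 8 to 12 weeks, and the labels call the tissue cortex. Paraffin was removed from the FFPE wells with mineral oil under heat, with heated xylene, or with xylene left at room temperature. Frozen wells and frozen nuclei are named in the authors' annotation tables, and the sources used here do not give the paraffin step of the plate and droplet nuclei. No sex, animal, genotype or further treatment is given.

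Mural cells are the pericytes that sit on capillaries inside the vessel's basement membrane and the smooth muscle cells around arterioles and venules. Endothelial cells secrete PDGF-B, and the receptor encoded by Pdgfrb holds pericytes to the vessel. The leptomeninges, the thin membranes on the brain surface, hold fibroblasts that lay down collagen and proteoglycans and take up metabolites from the cerebrospinal fluid. Ptgds is made by these fibroblasts and, in the brain, by oligodendrocytes and choroid plexus too, so its level does not belong to a single cell type.

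The promoters of Rgs5 and Atp13a5 are shown because both mural genes had their highest FFPE pool in the same heated xylene wells of 100 nuclei, described below. Abcc9, from few counts, also had its highest FFPE pool there, and its promoter is not printed. The 250 bases before each RefSeq start (GRCm38.p6) are printed. They read 5′ to 3′ on the gene's strand, at chr1:169655251-169655500 for Rgs5 and chr16:29378733-29378982 (minus strand) for Atp13a5. Capitals mark every match, on either strand, to the 5 motifs searched.
Rgs5: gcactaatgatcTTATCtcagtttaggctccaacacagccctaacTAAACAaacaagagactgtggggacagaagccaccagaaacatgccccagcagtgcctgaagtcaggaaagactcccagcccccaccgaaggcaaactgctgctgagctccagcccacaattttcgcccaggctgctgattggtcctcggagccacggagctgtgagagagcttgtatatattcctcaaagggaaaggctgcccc
Atp13a5: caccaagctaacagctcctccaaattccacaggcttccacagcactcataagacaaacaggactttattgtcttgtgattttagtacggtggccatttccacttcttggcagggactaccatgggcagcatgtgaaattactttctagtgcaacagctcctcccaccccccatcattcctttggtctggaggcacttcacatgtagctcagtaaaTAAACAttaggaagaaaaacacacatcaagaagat
Both held TAAACA, the core bound by forkhead factors, 199 bases before the start in Rgs5 and 29 bases before it in Atp13a5; 12.0% of 32851 RefSeq promoters of this length held it on either strand. Rgs5 also held GATAA, on the minus strand 233 bases before its start, as did 22.6% of promoters. Neither held TATAAA (12.4% of promoters), the CArG box bound by serum response factor (1.47%) or GGGCGG (32.7%). The Abcc9 promoter went the other way on TAAACA and GGGCGG. It lacked TAAACA and held GGGCGG on the minus strand, 73 bases before the start. TAAACA is thus not shared by every mural gene highest in that pool. The motifs were chosen with these sequences in view, no match overlaps another, and a match is a description of letters only.

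The 5 mural genes differ widely in length, which bears on nuclear libraries that take up unspliced RNA. In the GENCODE M21 annotation of GRCm38, Pdgfrb lies on chromosome 18 at 61045150 to 61085061 (plus strand, 39.9 kb), Rgs5 on chromosome 1 at 169655501 to 169695813 (plus, 40.3 kb), Abcc9 on chromosome 6 at 142587862 to 142702315 (minus, 114 kb), and Atp13a5 on chromosome 16 at 29231851 to 29378732 (minus, 147 kb). Vtn is short, on chromosome 11 at 78499091 to 78502324 (plus, 3.23 kb), and exons make up 62.8% of it. Of the leptomeningeal genes, Slc6a13 lies on chromosome 6 at 121300227 to 121337733 (plus, 37.5 kb), Dcn on chromosome 10 at 97479609 to 97518143 (plus, 38.5 kb), and Ptgds on chromosome 2 at 25466709 to 25470046 (minus, 3.34 kb, 49.4% exonic). In the other 6 genes exons make up 3.17% to 15.1%. An antisense gene, 5330439B14Rik, overlaps Abcc9 and a pseudogene lies inside Atp13a5; whether counting used strand is not given, so reads of these overlapping genes cannot be told apart.

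SCRB-seq tags the 3′ ends of transcripts and pools wells early. Its table held 64 wells of sorted nuclei, 8 with 10 nuclei and 8 with 100 for each paraffin step and for frozen nuclei, and each such set of 8 was 1 library pool, so pool and treatment cannot be told apart. Mouse counts per well ran from 7512 to 167144, and the mineral oil wells of 10 nuclei were the shallowest, at 7512 to 20593. The SMART-Seq2 table, of full-length libraries, held 12 wells: 1 of 10, 50 and 100 nuclei for each step and for frozen nuclei, with 270363 to 942966 counts. As 1 GEO sample covers each chemistry, wells are technical, and p-values measure only the spread between them. Markers of cerebellar granule neurons stood against the label cortex. Of 7 such genes, 5 were tested in SCRB-seq and 5 of 5 were called higher in FFPE than in frozen wells by edgeR (adjusted p under 0.05; median log2 difference 4.83), where 58.0% of all 1478 genes were called, 447 of them higher. In SMART-Seq2 5 of 6 tested were called higher, where 4.09% of all 9092 genes were called, 132 of them higher. Their part in the results on the vascular genes was not tested.

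Pdgfrb, the PDGF receptor of mural cells, was scattered over SCRB-seq pools. Levels are in CPM, a gene's counts per 1000000 mouse counts of its well. In room-temperature xylene wells of 10 nuclei it was present in 8 of 8 wells (15.4 to 297, mean 81.6 ± 90.9 SD), and in heated xylene wells of 100 nuclei in 8 of 8 wells (12.5 to 204, mean 66.6 ± 65.9). Room-temperature xylene wells of 100 nuclei gave 31.0 ± 44.0, with 2 wells at 0 and a highest of 132. Mineral oil and heated xylene wells of 10 nuclei held no count in any of their 16 wells, and mineral oil wells of 100 nuclei held 1 count in each of 3 wells. Frozen wells gave 1, 1 and 2 counts in 3 of 16 wells. Over all wells, FFPE averaged 30.9 ± 57.1 (n = 48) and frozen 4.05 ± 9.48 (n = 16), a difference of 26.9 CPM (2-sided permutation test over wells, 100000 resamples, p = 0.00916, 1 of 8 genes so tested, raw). FFPE and frozen wells overlapped, and 25 of 48 FFPE wells lay above the frozen mean. With the 8 pools as the unit, 6 FFPE against 2 frozen, the same difference gave exact permutation p = 0.571, where 0.0714 is the smallest possible. In bulk wells, fewer cells of a type and less RNA per cell cannot be told apart.

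Rgs5, a regulator of G protein signalling that is among the most abundant pericyte transcripts, followed another pool pattern. Its FFPE counts came from 1 pool of 6: heated xylene wells of 100 nuclei, with 4, 3, 1, 2, 14, 2, 4 and 0 counts (38.5 ± 32.2 CPM, highest 95.1). The other 5 FFPE pools held none, and the 3 counts a group of 0 allows come to 26.05 CPM over the mineral oil wells of 10 nuclei, near the mean of the pool with counts, and to 4.42 to 6.82 CPM over the other 4. In frozen wells of 10 nuclei 3 of 8 wells held 8, 1 and 6 counts (highest 433 CPM), and in frozen wells of 100 nuclei 3 of 8 held 1, 2 and 2. Means were 6.42 ± 19.1 in FFPE and 41.4 ± 111 in frozen wells (permutation p = 0.0695; by pools, exact p = 0.143). The frozen mean rests on a pair of wells, and most wells of both kinds were at 0.

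Atp13a5, a P5-type ATPase and pericyte marker, was highest in heated xylene wells of 100 nuclei, where 7 of 8 wells held it (61.2 ± 76.2 CPM, highest 242). Room-temperature xylene wells of 100 nuclei gave 37.7 ± 48.9 (highest 138). In frozen wells of 100 nuclei 7 of 8 wells held 1 or 2 counts (13.3 ± 10.1). Its FFPE mean was 20.1 ± 42.2 and its frozen mean 12.2 ± 16.4 (permutation p = 0.538), and the wells overlapped over the frozen wells' whole range. Abcc9, the regulatory subunit of the vascular ATP-sensitive potassium channel, gave 16 counts in 12 of 48 FFPE wells and 4 counts in 2 of 16 frozen wells (4.88 ± 9.93 against 4.83 ± 13.9 CPM, permutation p = 0.955).

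Vtn, which encodes the matrix and plasma protein vitronectin and is made in brain by pericytes, again changed place between pools. Heated xylene wells of 10 nuclei held it in 6 of 8 wells (0, 5, 0, 4, 5, 3, 2 and 14 counts, 92.4 ± 127 CPM), whereas the same step at 100 nuclei gave 1 count in 8 wells. Mineral oil wells of 100 nuclei gave 33.3 ± 57.5 CPM (highest 171) and frozen wells of 100 nuclei 42.2 ± 42.9 (highest 100.2, 6 of 8 wells). Room-temperature xylene wells of 10 nuclei held none in any well, in the pool where Pdgfrb was present in every well. The FFPE mean was 23.4 ± 63.7 and the frozen mean 22.7 ± 36.1 (permutation p = 0.840). The pool with the highest mean was room-temperature xylene at 10 nuclei for Pdgfrb, frozen at 10 for Rgs5, heated xylene at 10 for Vtn, and heated xylene at 100 for both Atp13a5 and Abcc9 (12.8 CPM, from 7 counts).

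**Figure D1:**
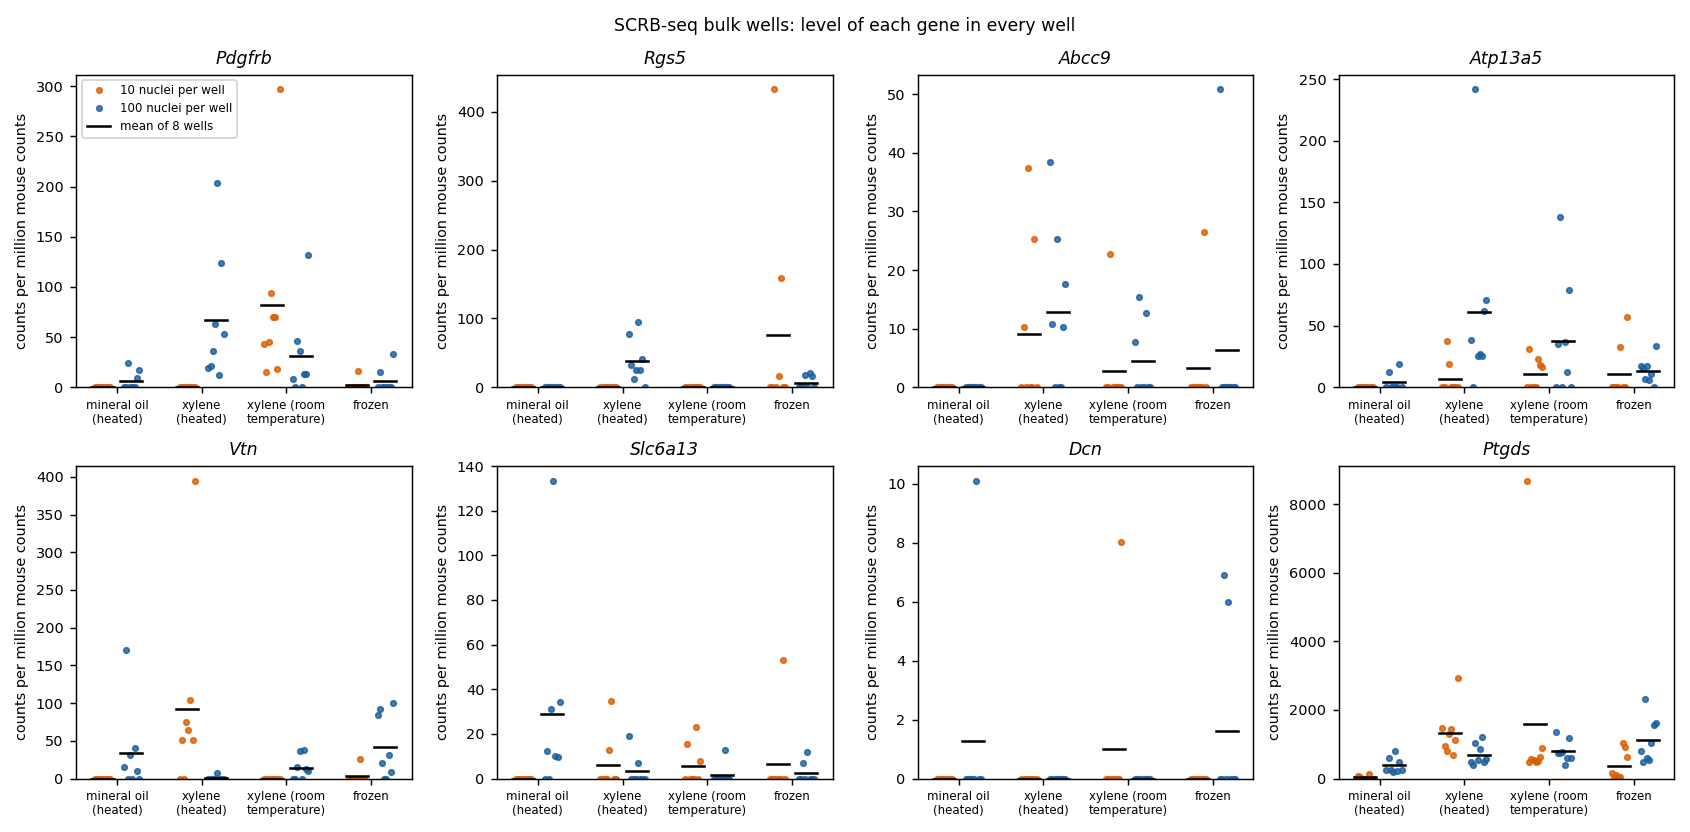
CPM scaled by mouse counts (vertical axis, linear, scale differs by gene) of the 8 genes in each of the 64 SCRB-seq wells, by paraffin step and frozen nuclei. Orange points are wells of 10 nuclei, blue points wells of 100 nuclei, and black bars means of 8 wells; most wells sit at 0 for 7 genes, and single wells reach 297 for Pdgfrb, 433 for Rgs5 and 8690 for Ptgds.

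Of the leptomeningeal genes, Slc6a13, a GABA and taurine transporter of the leptomeninges, had 17 of its 25 FFPE counts in mineral oil wells of 100 nuclei, 11 of them in 1 well, with 0, 1, 0, 1, 11, 1, 1 and 2 counts (28.8 ± 44.1 CPM, highest 133). All other wells held 0 to 2 counts. Means were 7.57 ± 20.8 in FFPE and 4.49 ± 13.3 in frozen wells (permutation p = 0.719). Dcn, the collagen-binding proteoglycan decorin, gave 4 counts in all 64 wells, 2 in FFPE and 2 in frozen wells (0.378 ± 1.84 against 0.806 ± 2.21 CPM, permutation p = 0.518).

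Ptgds, the enzyme that makes prostaglandin D2, was the abundant member, and the only 1 of the 8 that passed the filter on low SCRB-seq counts. Heated xylene wells held 691 to 2933 CPM at 10 nuclei (median 1199.7) and 399 to 1210 at 100 (median 549). Room-temperature xylene wells held 475 to 8690 at 10 nuclei (median 549) and 381 to 1363 at 100 (median 737). Mineral oil wells held 0 to 133 at 10 nuclei (3 counts in 3 of 8 wells, median 0) and 186 to 800 at 100 (median 259.9). Frozen wells held 40.4 to 1036 at 10 nuclei (median 128) and 489 to 2323 at 100 (median 918). Every mineral oil well of 10 nuclei therefore lay under every xylene well, and at 100 nuclei the ranges overlapped.

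Ptgds fell in mineral oil against both xylene steps. In edgeR's quasi-likelihood test over all FFPE wells, mineral oil minus heated xylene called 92 of 1080 genes (8.52%; 17 higher, 75 lower, median of all genes -0.15), and Ptgds was 1 of them, at log2 -2.14 (SE 0.47, adjusted p = 0.00133). Mineral oil minus room-temperature xylene called 111 of 1080 (10.3%; 27 higher, 84 lower), and Ptgds fell by 2.46 (SE 0.47, adjusted p = 0.000303). These pairs share the mineral oil wells. Heated minus room-temperature xylene called 21 of 1080 (1.94%), and Ptgds was at -0.31 (SE 0.44, adjusted p = 0.824).

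The fall was far larger in wells of 10 nuclei. Among those alone, mineral oil minus heated xylene called 106 of 509 genes (20.8%) with Ptgds at -5.67 (SE 0.94, edgeR adjusted p = 4.83e-05), and mineral oil minus room-temperature xylene 97 of 509 (19.1%) with Ptgds at -6.24 (SE 0.94, edgeR adjusted p = 1.77e-05); 5 of the 8 mineral oil wells there were at 0, so these fitted values depend on the prior count and are no bound. Among wells of 100 nuclei the values were -0.84 (SE 0.31, edgeR adjusted p = 0.0748, not called; 256 of 1953 genes called, 13.1%) and -0.96 (SE 0.31, edgeR adjusted p = 0.0474; 178 of 1953, 9.11%). The test of the difference, 10 against 100 nuclei, gave -5.00 (SE 0.89, edgeR adjusted p = 1.69e-05) for mineral oil minus heated xylene, in a comparison that called 686 of 1979 genes (34.7%, median of all genes -1.09). It gave -5.20 (SE 0.88, edgeR adjusted p = 1.11e-05) for mineral oil minus room-temperature xylene, where 766 of 1979 were called (38.7%, median -1.22). For the xylene pair it gave -0.20 (SE 0.64, edgeR adjusted p = 0.876), with 261 of 1979 called (13.2%).

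Oligodendrocyte markers, from another Ptgds source in brain, are given beside it. Their 9 genes summed to 43.4 CPM over mineral oil wells of 10 nuclei and 1034 over those of 100, against 1888 to 3476 over the 4 xylene pools and 367 and 415 over the frozen pools. The room-temperature xylene well with 8690 CPM of Ptgds also had the highest oligodendrocyte sum of its pool, at 16815 CPM against a pool median of 1093. The heated xylene well with 2933 CPM of Ptgds ranked 4 of 8 for that sum, at 1974 against a median of 1795, and was the well with the highest Vtn (395 CPM). Among frozen wells of 100 nuclei, whose median Ptgds of 918 CPM was above both xylene medians at 100 nuclei, the highest Ptgds well (2323 CPM) ranked 7 of 8 for the oligodendrocyte sum. Over all 8 pools, the well with the most Ptgds ranked 1 for the oligodendrocyte sum in 3, among them heated xylene at 100 nuclei (6252 CPM against a median of 3086), 2 to 4 in 4 and 7 in 1. In 2 of those 3 pools, heated xylene at 100 and frozen at 10 nuclei, the same well also ranked 1 for the astrocyte sum, and in the mineral oil pool of 10 nuclei the rank of 4 is a tie at 0. The part of oligodendrocyte nuclei and of depth in the Ptgds difference was not tested.

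Against frozen wells, Ptgds did not pass the test over all wells. FFPE averaged 806 ± 1275 CPM (n = 48) and frozen 746 ± 657 (n = 16; permutation p = 0.877). edgeR called 857 of 1478 genes (58.0%; 447 higher, 410 lower in FFPE, median 0.00) and gave Ptgds -0.22 (SE 0.35, adjusted p = 0.623). With DESeq2's size factors 983 were called (66.5%; 309 higher, 674 lower), the median of all genes moved to -0.58, and Ptgds stood at -0.79 (SE 0.35, edgeR adjusted p = 0.0414), near that shift. Size factors from positive counts gave -0.08 (edgeR adjusted p = 0.869). In wells of 100 nuclei alone, Ptgds was lower in FFPE, at -0.98 (SE 0.25, edgeR adjusted p = 0.00105; 1119 of 2440 genes called, 45.9%, median 0.09). At 10 nuclei it was 0.09 (SE 1.34, edgeR adjusted p = 0.965). The difference between those nuclei numbers was 1.17 (SE 0.71, edgeR adjusted p = 0.263), in a test that called 417 of 2511 genes (16.6%).

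Without the filter on low counts, 4785 of 19006 genes were called (25.2%) and 2 of the 8 members: Pdgfrb, higher in FFPE at log2 2.09 (SE 0.73, edgeR adjusted p = 0.0226), and Rgs5, lower at -2.61 (SE 0.54, edgeR adjusted p = 8.12e-05). Both rest on counts of a few pools, given above. Vtn stood at -0.24 in that fit.

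Summed marker lists put these levels beside other vascular cells. The 15 pericyte markers, 14 of them in the table and the 5 mural genes among them, summed to 319 CPM over FFPE and 180.2 CPM over frozen wells (per well 0 to 1043 and 71.8 to 595), with Higd1b at 0 in FFPE. The 12 endothelial markers summed to 2085 against 508, and the 25 leptomeningeal markers, Ptgds included, to 1141 against 1153. Of the pericyte list only Ebf1, a transcription factor gene, passed the filter, and it was higher in FFPE by 2.31 on the log2 scale (SE 0.48, edgeR adjusted p = 3.05e-05). Of the 6 PDGF ligands and receptors only Pdgfd, a ligand of PDGF receptor beta, was tested, and it was higher in FFPE by 3.49 (SE 0.53, edgeR adjusted p = 3.82e-08). With 58.0% of all tested genes called in this comparison, these single calls say nothing particular to either list.

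The SMART-Seq2 wells repeated the sparseness with full-length reads. Pdgfrb, from 10 to 50 to 100 nuclei, held 0, 18.9 and 82.1 CPM in mineral oil, 60.4, 0 and 0 with heated xylene, 0, 33.5 and 2.04 with xylene at room temperature, and 35.9, 0 and 4.29 in frozen wells. Rgs5 was at 0 in the 3 frozen wells and reached 83.5 and 59.1 in the mineral oil and room-temperature xylene wells of 100 nuclei. Atp13a5 held 220 CPM in the frozen well of 10 nuclei, 76.7 in the mineral oil well of 100 nuclei and at most 17.1 elsewhere. The same few wells were high for several mural genes: the mineral oil well of 100 nuclei held all 5 (Abcc9 40.4, Vtn 20.2), the room-temperature xylene well of 100 nuclei held all 5 (Abcc9 10.2, Vtn 44.8), and the frozen well of 10 nuclei held 4, with Abcc9 at 49.4 and Vtn at 35.9.

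Slc6a13 was present in the frozen wells of 50 and 100 nuclei (7.40 and 10.7 CPM) and in 1 FFPE well (6.73). Dcn was present in 2 FFPE wells (23.7 and 4.32) and in no frozen well. Ptgds held 0, 577 and 25.6 CPM in mineral oil, 790, 235 and 406 with heated xylene, 164, 291 and 344 with xylene at room temperature, and 10.1, 677 and 206 in frozen wells. The FFPE and frozen ranges overlapped for 8 of 8 genes, for Rgs5 and Dcn at 0. None of the 8 passed a 2-sided exact permutation test between 9 FFPE and 3 frozen wells, with raw p from 0.0909 (Slc6a13) to 1 (Dcn), where 0.00909 is the smallest possible.

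**Figure D2:**
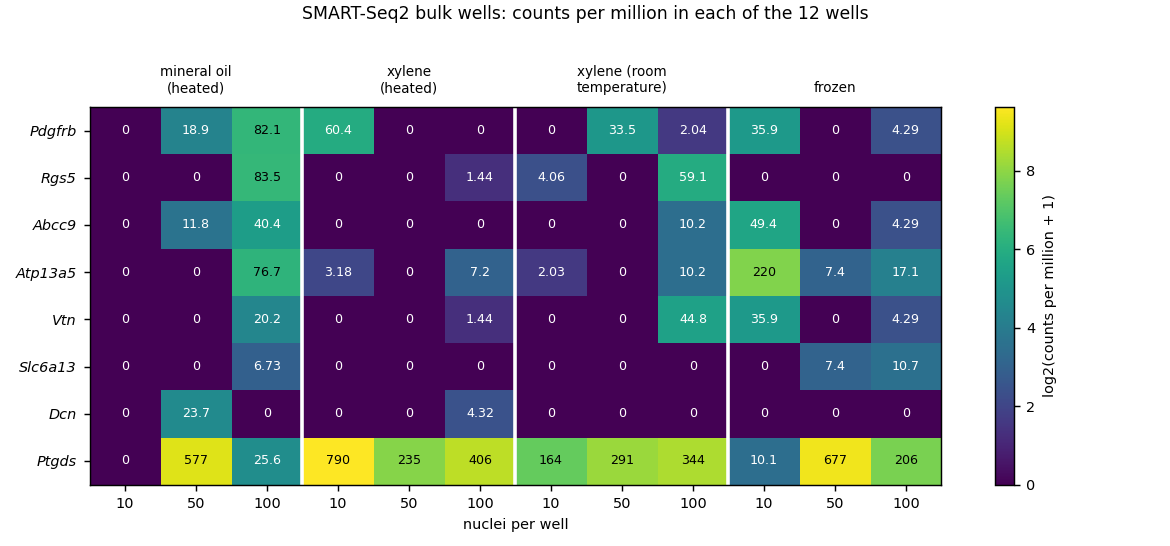
CPM of the 8 genes (rows) in each of the 12 SMART-Seq2 wells (columns, by paraffin step and nuclei per well), with the value printed in each cell and the colour on a log2(CPM + 1) scale. Atp13a5 reaches 220 in the frozen well of 10 nuclei, and the mineral oil and room-temperature xylene wells of 100 nuclei are the columns where all 5 mural genes are above 0.

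Pdgfrb, Vtn and Ptgds passed the SMART-Seq2 filter, and none was called. FFPE minus frozen called 372 of 9092 genes (4.09%), with Ptgds at -0.19 (SE 0.93, edgeR adjusted p = 0.962), Vtn at -2.11 (SE 1.54, 0.612) and Pdgfrb at 0.24 (SE 1.73, 0.975). Between paraffin steps no gene was called in any of the 3 pairs (0% of 8372 each; 314, 199 and 379 genes at unadjusted p under 0.05, and 20, 1 and 26 calls by DESeq2). Of the 10 genes of prostaglandin synthesis and D2 receptors 6 were tested against frozen wells and 1 was called: Ptgis, prostacyclin synthase, fell by 5.17 (SE 1.27, edgeR adjusted p = 0.0204), while the median of the 6 was 0.26. None was called among 4 of 6 PDGF genes, 4 of 10 R4-family RGS genes, 4 of 5 P5 ATPases, 4 of 7 vitronectin receptor genes, 2 of 4 GABA transporters, 1 of 12 small leucine-rich proteoglycans and 1 of 4 potassium channel genes tested, with list medians from -0.70 to 0.73 beside -0.13 for all genes.

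Single nuclei in SMART-Seq2 plates showed each gene in a minority of nuclei, except Ptgds. The table with both kinds held 143 FFPE nuclei (median 47887 counts) and 137 frozen nuclei (median 255329 counts), with no replicate samples labelled within either kind, so no test was made. At least 1 count of Rgs5 was found in 10.5% of FFPE nuclei (15, exact 95% interval 5.99 to 16.7) and 35.8% of frozen nuclei (49, 27.8 to 44.4). Vtn was found in 8.39% (12, 4.41 to 14.2) and 29.9% (41, 22.4 to 38.3). These are the 2 members whose intervals did not overlap. The share of all genes with such a gap was not computed, so it cannot be called particular to them. Cerebellar granule neuron markers summed to 1930 CPM in FFPE and 429 in frozen nuclei, and neuron markers to 5933 and 11313. The part of depth and of these cell types in the shares was not tested.

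The other members were closer. Pdgfrb was found in 6.99% of FFPE and 15.3% of frozen nuclei, Atp13a5 in 15.4% and 21.9%, Abcc9 in 4.90% and 6.57%, Slc6a13 in 5 and 11 nuclei (8.03% of frozen), and Dcn in 6.29% and 7.30%. Ptgds was found in 76.2% and 76.6%. The share of all genes that were lower in FFPE was not computed. Of the members, 8 of 8 shares were lower in FFPE. After each nucleus was thinned to 10000 counts, leaving out 8 and 10 nuclei, 4 of 8 were: Vtn stood at 2.22% against 15.0%, Rgs5 at 7.41% against 10.2% and Pdgfrb at 4.44% against 4.72%, Abcc9 at 0% against 0.787%, while Atp13a5 (4.44% against 3.94%), Slc6a13, Dcn (each 1.48% against 0%) and Ptgds (60.7% against 58.3%) were higher in FFPE. Thinning is itself a draw: 2 draws over the same 126 FFPE nuclei found Atp13a5 in 9 and in 5.

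The FFPE batches differed from each other. Batch 1 held 98 nuclei (median 180584 counts) and batch 2 held 134 (median 42747), which are also the larger part of the FFPE nuclei above. Ptgds was found in 31.6% of batch 1 and 74.6% of batch 2, and in 18 of 90 and 80 of 126 nuclei after thinning. The 8 choroid plexus markers differed the same way, at 145 CPM (any marker in 35.7% of nuclei) in batch 1 and 1874 CPM (66.4%) in batch 2, with Aqp1 and Otx2 at 0 in both. The oligodendrocyte markers summed to 2756 and 3090 CPM and the leptomeningeal markers, Ptgds included, to 2228 and 6336, and the part of these cell types in the Ptgds difference was not tested. Vtn was found in 0 of 98 nuclei of batch 1, which allows a share of up to 3.06%, and in 6 of 134 of batch 2. Atp13a5 was found in 12 and 17 nuclei, Rgs5 in 3 and 9, and Abcc9 in 6 and 4. The deeper batch held the smaller share for 7 of the 8 genes, and Abcc9 went the other way.

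**Figure D3:**
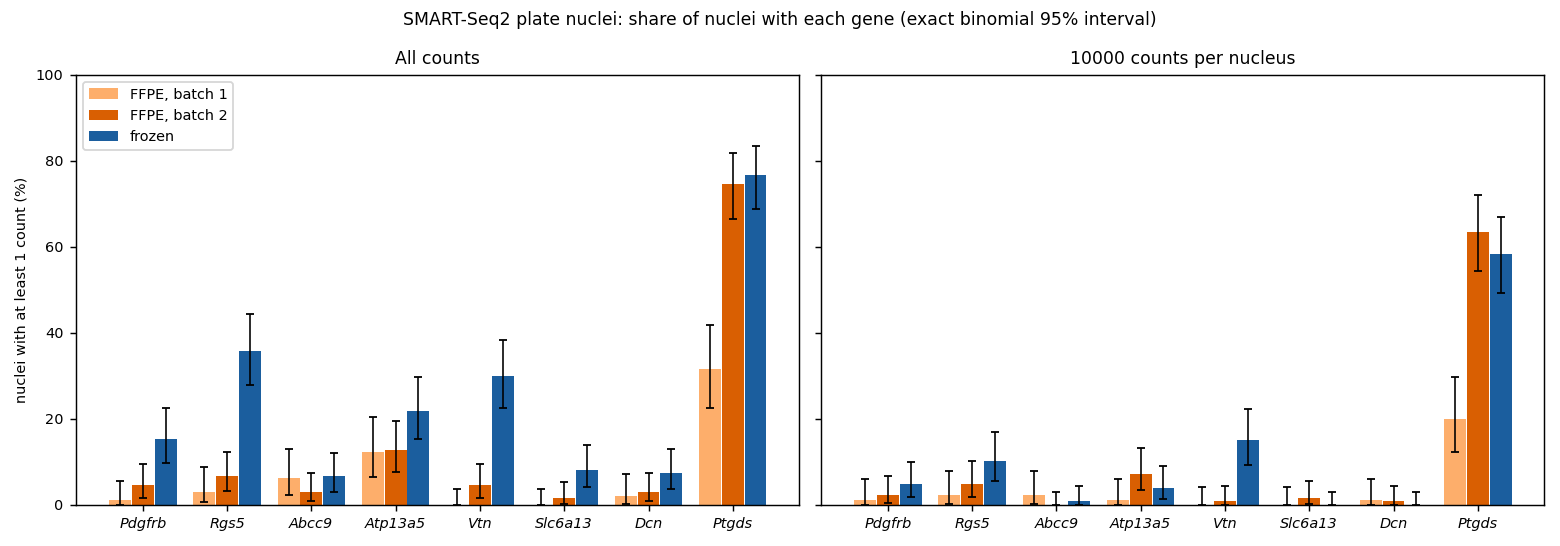
Share of plate nuclei with at least 1 count of each gene (bars, percent) with exact binomial 95% intervals (lines), for FFPE batch 1, FFPE batch 2 and frozen nuclei, with all counts on the left and with 10000 counts per nucleus on the right. Ptgds is in 31.6% of batch 1 nuclei and about 75% of the others, and the frozen bars for Rgs5 and Vtn shrink from 35.8% and 29.9% to 10.2% and 15.0%.

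Single nuclei carried most of the FFPE reads of 6 of the 8 genes. Among them, 1 nucleus held 1497 of 2492 Rgs5 counts (60.1%), another 207 of 337 Pdgfrb counts (61.4%), another 332 of 508 Vtn counts (65.4%) and another 673 of 792 Dcn counts (85.0%). That last nucleus is 1 of 9 that are not in batch 2, described below, and the 134 nuclei of batch 2 held 6 Dcn counts. The top nuclei of Abcc9 (123 of 185 counts) and Atp13a5 (190 of 351) are also among these 9, and in batch 2 the top nucleus held 1 of 4 Abcc9 and 40.4% of 156 Atp13a5 counts. In batch 1, 1 nucleus held 334 of 366 Atp13a5 counts (91.3%). In frozen nuclei the top nucleus held 1817 of 4256 Rgs5 counts (42.7%) and 1813 of 4729 Vtn counts (38.3%), but 21.2% of Pdgfrb and 16.8% of Atp13a5 counts. Ptgds was spread more widely in FFPE, with 15.1% of its counts in the top nucleus. Summed over nuclei, Rgs5 was 106 CPM in FFPE and 67.0 in frozen nuclei, Pdgfrb 14.3 and 3.49, and Ptgds 3083 and 1641, each higher in FFPE although the shares of nuclei were lower (for Ptgds, nearly equal). With each nucleus weighted equally, the mean for Rgs5 turned the other way, at 45.9 CPM in FFPE and 59.0 in frozen nuclei. The choroid plexus markers summed to 1569 CPM in FFPE and 541 in frozen nuclei, the oligodendrocyte markers to 2938 and 2689, and the leptomeningeal markers, Ptgds included, to 4350 and 2354. The part of these cell types in the Ptgds difference was not tested. Vtn was lower in FFPE by both measures, at 21.5 against 74.4 CPM. Over the 134 nuclei of batch 2 alone the FFPE sums were 166 CPM for Rgs5, 28.1 for Pdgfrb, 33.9 for Vtn and 4916 for Ptgds.

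Most of those nuclei held few other mural genes. The FFPE nucleus with 207 Pdgfrb counts also held 13 of Atp13a5 and 2 of Vtn among 44373 counts, and another held 43, 63 and 1 among 94036, with 0 of 12 endothelial markers. The nucleus with 1497 Rgs5 counts held no other mural gene but 5 endothelial markers, and a batch 1 nucleus with 84 Rgs5 counts held 10 of the 12. The highest Ptgds nuclei held 10992 counts (39136 CPM) in FFPE, 8149 in batch 1 and 20908 (43175 CPM) in frozen nuclei.

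Nuclei with several mural genes were nuclei with many genes of any kind. In frozen nuclei the median number of genes was 2036 with no mural gene (69 nuclei), 4293 with 1 (31), 7087 with 2 (13) and 10282 with 3 or more (24). The last 24 had a median of 8 of 12 endothelial, 9 leptomeningeal, 9 oligodendrocyte and 7 neuron markers. In batch 2 the medians were 1446 (101 nuclei), 2132.5 (26), 2832 (5) and 2982 (2). Rgs5 and Vtn met in 29 of 137 frozen nuclei. Their part in the shares above was not tested.

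**Figure D4:**
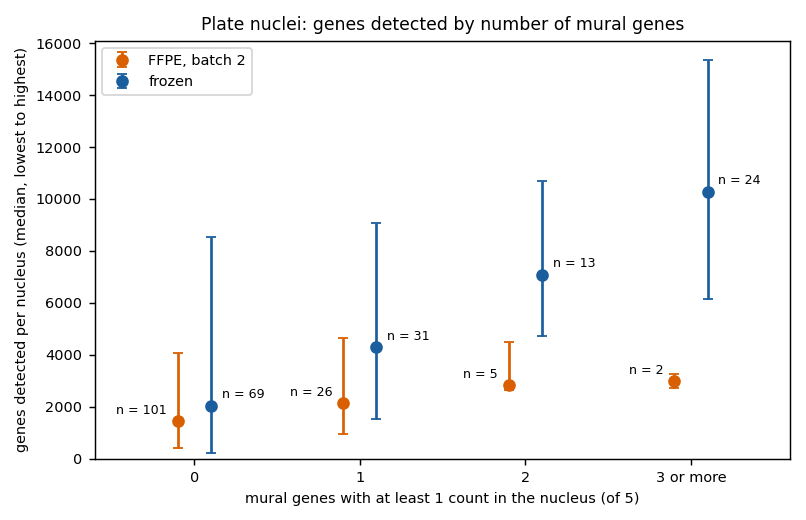
Genes detected per plate nucleus (vertical axis; point, median; line, lowest to highest) by the number of the 5 mural genes with at least 1 count, for FFPE batch 2 and frozen nuclei, with the number of nuclei beside each point. The frozen median climbs from 2036 genes with no mural gene to 10282 with 3 or more.

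The whole FFPE group also held 9 nuclei that are not in batch 2, with 102136 to 4973791 counts and a median of 6789 genes. The sources used here do not say if each is 1 nucleus. Of them, 8 held 2 or more mural genes, and Rgs5 and Vtn met in 5. Without these 9, the FFPE shares were 6.72% for Rgs5, 4.48% for Vtn and for Pdgfrb, 2.99% for Dcn and for Abcc9, 1.49% for Slc6a13, 12.7% for Atp13a5 and 74.6% for Ptgds. Thinned, and again without the 9, 1 draw found Vtn in 0.794% and Rgs5 in 4.76% of 126 nuclei. It found Pdgfrb in 3.17%, and Dcn in 0 and Abcc9 in 1 nucleus, both as in frozen nuclei. The other draw over these 126 nuclei found Pdgfrb in 2.38%, Dcn in 1 nucleus and Abcc9 in 0. The draws thus differ on whether the higher thinned Dcn share in FFPE rested on these 9.

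In droplets the authors' annotation gives 12 classes over 7031 FFPE nuclei, with no mural class. Fibroblast held 47 nuclei (median 396 UMIs), Endothelial 174 (301.5), and 6 excitatory neuron classes 5580 (325); 0 barcodes were repeated. The table is 1 sample and the classes were made from these same genes, so the values are descriptions without a test. For 8 of 8 genes the class with the highest share of nuclei with a UMI was Endothelial or Fibroblast, also after thinning to 250 UMIs and among nuclei with at least 300 genes, where Pdgfrb stood at 2.38% in Endothelial and 2.27% in OPC. With at least 2 UMIs asked for, 7 of 8 did so, and Abcc9 was in no class. That rested on 1 nucleus each for Pdgfrb, Slc6a13 and Dcn, 2 for Atp13a5 and 3 for Rgs5. Vtn was in 2 Fibroblast nuclei (4.26%) and 7 Endothelial nuclei (4.02%).

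The Endothelial class led for Rgs5, Pdgfrb and Abcc9. Rgs5 was found in 13.8% of its nuclei (24; 495 CPM), 2.13% of Fibroblast (1 nucleus) and 1.06% of excitatory neurons, which should lack it (28.4 CPM). The class held 27.7% of all 101 Rgs5 UMIs. Pdgfrb was found in 4.02%, 2.13% and 0.394% in the same order (42 UMIs in all), and Abcc9 in 2.30%, 0% and 0.125% (15 UMIs; 0 of 47 allows up to 6.38% of nuclei with a UMI). After thinning, Rgs5 was in 10.2% of Endothelial nuclei. Most UMIs of these 3 genes lay outside the class, which held 19.0% of those of Pdgfrb and 26.7% of those of Abcc9.

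Within that class 48 of 174 nuclei held a mural gene, 11 held 2 or more, and Rgs5 met Vtn in 6. An endothelial marker was present in 26 of those 48 (54.2%) and in 54.0% of the rest of the class. The 10 pericyte markers other than the members summed to 1060 CPM in the class, 303 in Fibroblast and 201 in excitatory neurons. The 12 endothelial markers summed to 3357, 303 and 145 CPM in the same order. Smooth muscle markers gave 8 UMIs in Endothelial and 5 in Fibroblast, too few to order the classes.

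The Fibroblast class led for Vtn, Atp13a5 and the 3 leptomeningeal genes. Ptgds was found in 63.8% of its nuclei (30, exact interval 48.5 to 77.3), 28.2% of Oligodendrocyte (23.2 to 33.7), 8.05% of Endothelial and 5.93% of excitatory neurons. Its level was 13576 CPM, 1039, 265 and 171 in that order. Among Fibroblast nuclei 17 held no Ptgds UMI, 10 held 1 or 2, and 10 held 10 or more, the highest 41 and the next 30, and the top 5 held 53.5% of the class's 269. No oligodendrocyte held over 4.

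Slc6a13 was found in 14.9% of Fibroblast and 0.0358% of excitatory neurons, with 8 of its 12 UMIs in Fibroblast, and in 0 of 174 Endothelial nuclei. By the 3 counts that a count of 0 allows, up to 1.72% could hold a UMI, which does not limit the share that express the gene. Dcn was found in 8.51% and 0.143%, with 5 of 16 UMIs in Fibroblast and none in Endothelial. Slc6a13 or Dcn was in 10 of the 47 nuclei, and 9 of those 10 held Ptgds too. Vtn was found in 29.8% of Fibroblast (858 CPM), 11.5% of Endothelial (512 CPM) and 1.25% of excitatory neurons (34.6 CPM). Thinned, the first 2 shares were 17.4% and 10.2%. Atp13a5 was found in 8.51%, 3.45% and 0.878%, and in 4.35% of Fibroblast (2 nuclei) and 3.61% of Endothelial after thinning; 4 of its 8 Fibroblast UMIs were in 1 nucleus.

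**Figure D5:**
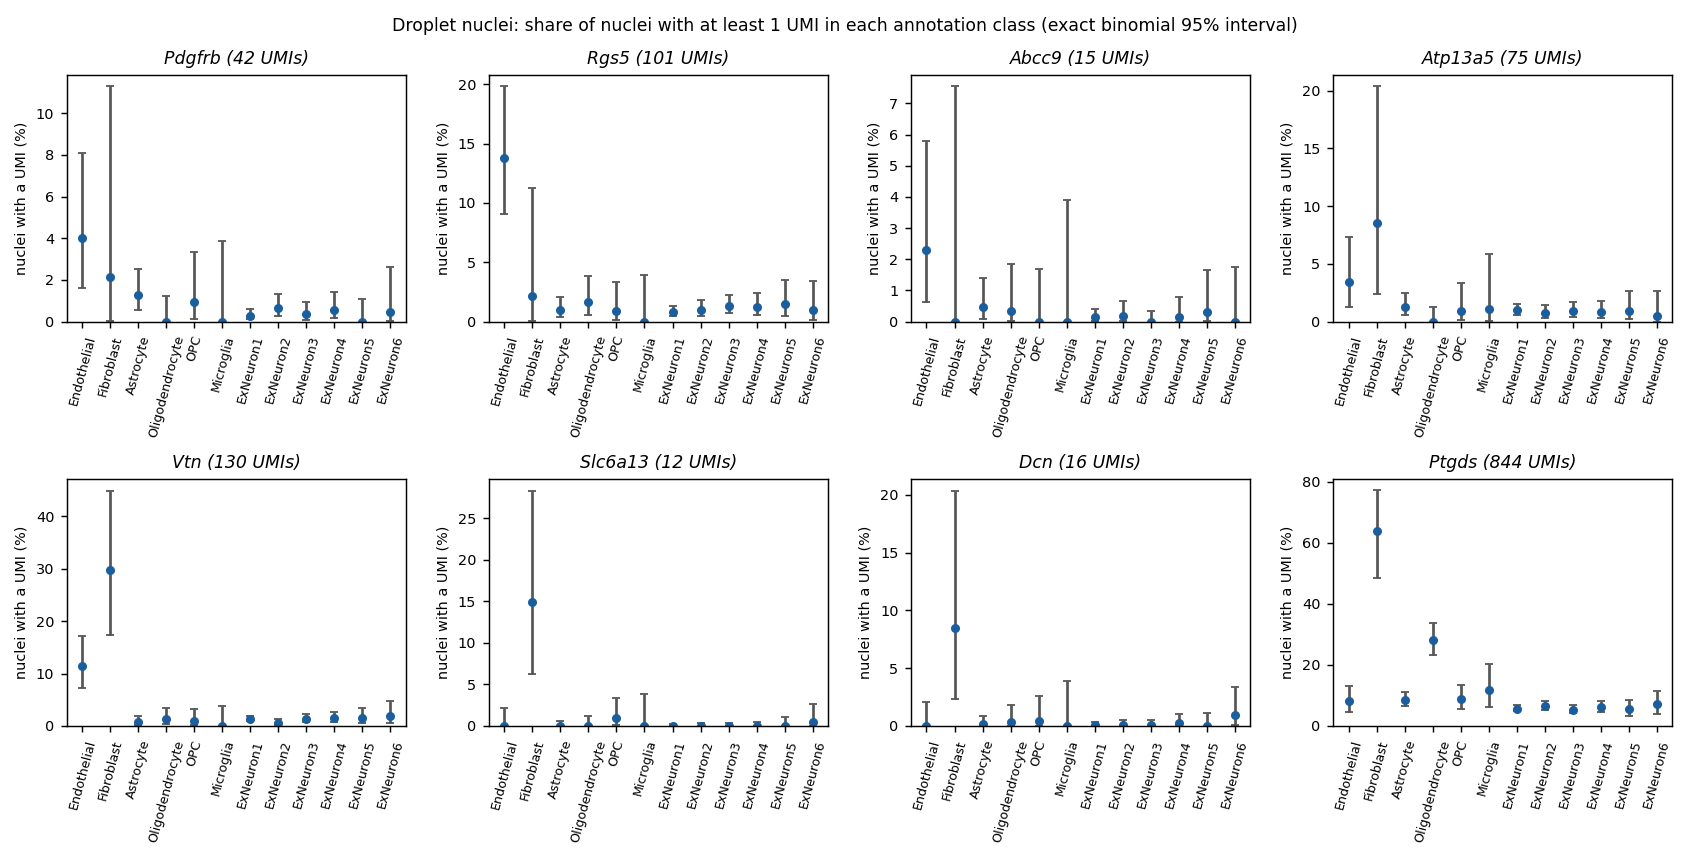
Share of droplet nuclei with at least 1 UMI (vertical axis, percent, scale differs by gene) in each of the 12 annotation classes, with exact binomial 95% intervals; the title of each panel gives the gene's UMIs over all nuclei. Rgs5 stands highest in Endothelial at 13.8%, and Ptgds, Slc6a13, Dcn and Vtn stand highest in Fibroblast.

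The Fibroblast label is set beside markers, which is no independent check because the classes were made from these same genes. Of 25 leptomeningeal markers 22 were detected in the 47 nuclei, and they summed to 22156 CPM (7924 without the 3 members), against 1811 in Oligodendrocyte (763 without), 989 in Endothelial (724) and 384 in excitatory neurons (208). By the ratio of its level to that of all other nuclei, Ptgds led the class (61.0), and high ratios were also found for Slc7a11, a cystine transporter (35.6), Alcam, a cell adhesion molecule (10.5), Slc38a2, an amino acid transporter (9.48), and Trpm3, a cation channel (8.43). Choroid plexus markers, of the other tissue rich in Ptgds, summed to 757 CPM in Fibroblast and 545 in excitatory neurons, and Folr1, Kl, Clic6, Slc4a5, Aqp1 and Otx2 were at 0 in Fibroblast. By the 3 counts that a count of 0 allows, each could stand at up to 151 CPM there.

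Over the 12 classes, the genes most like Rgs5 in log2(CPM + 10) were Slco1a4, an endothelial organic anion transporter (Pearson 0.94), Tmub2 (0.88) and Tmem87a (0.87). Ptgds was most like Slc7a11 (0.92), Rbl2 (0.92) and Tank (0.91). Vtn was most like Sptbn1 (0.93), Itih5 (0.93) and Morc3 (0.91), and Atp13a5 most like Asxl1 (0.93), Plgrkt (0.91) and Tada1 (0.91). These are descriptions over 12 points among 7814 genes, from 1 library whose small classes carry few UMIs.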

How the data were processed

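Deposited tables were used as the authors made them. Per the file headers and totals, those for bulk wells and plate nuclei hold unnormalized counts by gene, and those for droplets hold UMI counts. The authors annotated each nucleus with the percent of mouse counts and the fraction of mitochondrial counts, and gave methods, nuclei per well and droplet classes. Builds hg19 and mm10 come from the submitters' processing notes; the aligner, the counter and any UMI collapsing of SCRB-seq reads are not given in the sources. Droplet nuclei were filtered before deposit, no doublet caller was run here, and batch 3 holds 0 nuclei. Human genes were left out of all fits, and 0 columns were left unmapped.

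The members and lists were chosen with earlier results of these data known. All 8 members are named in every table, the 10 leading genes of the Fibroblast class and the 3 genes most like a member with at least 50 UMIs are named by rule, and list genes only where called or needed beside a member. Some results under these naming rules are left out of the text. Wells were tested with edgeR 4.0.16's quasi-likelihood test under R 4.3.3 (filterByExpr, then TMM, with Benjamini-Hochberg adjustment over all genes tested, threshold 0.05), with DESeq2 1.42.0 as an alternative, and single genes with permutation tests of mean CPM, raw over 8 genes. On simulated data with the SCRB-seq spread the test recovered 62.3% of 2-fold and 100% of 4-fold and 16-fold changes between FFPE and frozen wells (1478 genes), and with the SMART-Seq2 spread 0%, 6.90% and 70.8% (9092 genes). Only genes that passed the filter were simulated, among them 1 member in SCRB-seq and 3 in SMART-Seq2, and wells were drawn independently. The rates therefore do not cover the other members or differences between library pools.

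A gene counted as detected with 1 count. Of the FFPE plate nuclei, 134 equal those of batch 2 (0 unequal values over 21117 genes). Thinning drew 20000 counts per SCRB-seq well (8 wells left out), 10000 per plate nucleus and 250 UMIs per droplet nucleus. Intervals are 95%, exact binomial or Poisson, and they and the limits that 3 counts give cover counting error only, since plate and SMART-Seq2 reads carry no molecular identifiers. Positions are from GENCODE M21 and promoters from RefSeq. Python 3.11.15, numpy 2.4.6, pandas 2.3.3, scipy 1.17.1 and matplotlib 3.10.9 were used.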

Additional observations from a re-analysis of the deposited data

Results flagged for a closer look

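Within sets of wells, a highest well stood far from the others in 9 of the 25 sets with at least 4 wells holding a count. For normally distributed values chance marks about 1 in 20 sets, and its rate for skewed low counts was not tested. In SCRB-seq these were Pdgfrb at 297 CPM (room-temperature xylene, 10 nuclei) and 132 CPM (room-temperature xylene, 100 nuclei), Atp13a5 at 242 CPM (heated xylene, 100 nuclei), Vtn at 171 CPM (mineral oil, 100 nuclei) and 395 CPM (heated xylene, 10 nuclei), Slc6a13 at 133 CPM (mineral oil, 100 nuclei), and Ptgds at 2933 CPM (heated xylene, 10 nuclei) and 8690 CPM (room-temperature xylene, 10 nuclei). In SMART-Seq2, Atp13a5 stood apart at 76.7 CPM in the mineral oil well of 100 nuclei. The Ptgds differences between paraffin steps changed with the nuclei number, tested directly with edgeR: by -5.00 on the log2 scale for mineral oil minus heated xylene and by -5.20 for mineral oil minus room-temperature xylene, from 10 against 100 nuclei.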

How the results depend on the processing

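Of 274 alternatives with a value, 151 for single genes and 53 for whole comparisons and permutation tests were labelled the same. For log2 differences this meant direction and side of the threshold kept, and for permutation tests the side of the threshold. For numbers of genes called or of members it meant within a fixed fold of the main number. For shares of nuclei it meant direction not reversed and a shift under the wider side of the frozen or Fibroblast interval. SCRB-seq FFPE minus frozen calls moved from 857 to 4785 without the filter, 478 at 10 nuclei alone and 322 after thinning, and DESeq2's size factors split them 309 higher to 674 lower. Method pair calls, in the order mineral oil minus heated xylene, heated minus room-temperature xylene, and mineral oil minus room-temperature xylene, were 3415, 2899 and 2925 without the filter and 256, 117 and 178 at 100 nuclei; DESeq2 called 36 in the second pair, and size factors split the second 4 to 10 and the third 13 to 86. SMART-Seq2 FFPE minus frozen calls were 641 with DESeq2 and 162 to 469 with 1 well left out, the lowest without a frozen well; the pairs gave 20, 1 and 26 with DESeq2, 19, 5 and 16 without the filter, and 0 to 6, 0 to 0 and 0 to 8 with 1 well left out. The Pdgfrb difference of 26.9 CPM had exact permutation p = 0.571 over library pools, a unit added after the data were seen. Ptgds changed sign to 0.0887 at 10 nuclei alone (FFPE minus frozen), 0.36 with DESeq2 (heated minus room-temperature xylene) and 0.43 with nuclei number as a covariate (SMART-Seq2). With 1 SMART-Seq2 well left out, FFPE minus frozen ran from -1.98 to 2.80 for Pdgfrb, -3.98 to 0.46 for Vtn and -1.47 to 1.21 for Ptgds; the pairs ran from -1.30 to 7.30, -5.75 to 4.31 and -0.28 to 4.80 for Pdgfrb and from -5.27 to -0.69, 0.32 to 1.34 and -4.27 to 0.21 for Ptgds. Thinning left 4 of 8 plate shares lower in FFPE and turned Atp13a5 (0.507 points), Slc6a13 (1.48), Dcn (1.48) and Ptgds (2.47); asking for 5 counts turned Abcc9 (0.638) and Dcn (1.37), but all 3 FFPE nuclei behind each are among the 9 outside batch 2, and batch 2 held 0. The cause was not tested, except that fewer wells or counts went into the subsets. At these depths 1 member passed the filter in SCRB-seq and 3 in SMART-Seq2. By replicate number, no paired analysis was possible because wells carry none from the labels. With nuclei number, which the treatments share, as a block, FFPE minus frozen gave 429 calls against 372 in SMART-Seq2 and 882 against 857 in SCRB-seq.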

Other observations

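The SCRB-seq table also lists human genes. Human ABCC9 had 22 counts in FFPE wells and 1 in frozen wells, which is 7.39 CPM (exact interval 4.63 to 11.2) and 0.939 CPM (0.0238 to 5.23) relative to the mouse counts. Human genes took 11.8% of all counts in FFPE wells and 2.08% in frozen wells.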
